A study of Mus musculus with 3 samples.

Results

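The translation initiation factors are the proteins that bring the ribosome, the initiator tRNA and an mRNA together before protein synthesis starts. They were described here on 3 expression arrays of neurospheres, floating colonies grown from neural precursor cells. A gene was included when its symbol begins with Eif followed by a digit from 1 to 6. The binding proteins Eif4ebp1, Eif4ebp2 and Eif4ebp3 and the Y-linked Eif2s3y were left out. The choice used names and no measured difference, and it took 48 of the 22180 genes on the arrays that had a probe set of a single symbol. Where a gene had several such probe sets, the one with the highest mean was used, so a gene with several had more than 1 chance of a high signal. The genes Eif1, Eif2s1, Eif2s3x, Eif3g, Eif3j2 and Eif4g1 had no probe set of their symbol alone and were not analysed here.

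All 3 arrays belong to 1 group. Wild-type (WT) CD1 mice, labelled as postnatal day 8 and given as day 7 or 8 in the growth protocol, were the source of the cells. The tissue was the V-SVZ, the ventricular-subventricular zone, where neural stem cells lie beside the lateral ventricles. They grew for 7 days from 10 cells per microlitre in medium with 2% B27, 10 ng/ml FGF and 20 ng/ml EGF. Pups were cultured apart per the labels, but the labels do not say whether an array holds the cells of 1 pup, so the spread between arrays may be technical. No genotype, treatment or time is contrasted in the series.

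Initiation runs as a cycle. The factor eIF2 carries the initiator tRNA to the small ribosomal subunit, where eIF1, eIF1A and the large complex eIF3 are bound. The cap of the mRNA is held by eIF4E, the scaffold eIF4G joins it to the ribosome, and the helicase eIF4A unwinds the leader. eIF5 and eIF5B then release the factors and join the large subunit. 4E-T, encoded by Eif4enif1 and named in the title of the study, binds eIF4E in place of eIF4G and represses the mRNA, often in the granules called P-bodies. In neural precursors of the embryonic mouse cortex 4E-T is known to hold neurogenic mRNAs in a repressed state.

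The values are log2 signals made by the authors with RMA, a method that removes background, brings arrays onto 1 distribution and combines the probes of each set. With no second group, the comparison was with signal from genes that neural cells should not use. Smell and pheromone receptors, which belong to the nose, gave 1405 probe sets, and their 95th percentile on each array served as reference level. It lay at 5.63, 5.53 and 5.71 on arrays 1, 2 and 3, and the medians of all probe sets were 5.87, 5.85 and 5.86. The margin of a gene is its log2 signal minus that level. A ± after a margin is the SD of the margin, which includes the shift of the level between arrays. A gene with equal signals on all arrays therefore has a margin SD of 0.09. A ± after a mean signal is the SD of the signal. A gene was called above the level at an adjusted p under 0.05 in limma's one-sided moderated test over all 22180 genes. The 3 arrays limit the precision of every value. Probes bind with different strength, so signals and margins set side by side for different genes do not give relative amounts of transcript. As a check of the labelled cell type, 7 of 7 measured neural stem cell markers were above the level, against 0 of 5 genes of other organs. Of all genes tested, 59.1% were called. Of other cells that the tissue could hold, 3 of 4 neuroblast, 3 of 3 oligodendrocyte precursor, 2 of 5 microglia, 1 of 4 endothelial and 1 of 4 ependymal markers were above. The low counts depended on the level. With the 90th percentile they were 4 of 5 microglia, 2 of 4 endothelial and 4 of 4 ependymal markers, and 1 of 5 genes of other organs. With the 99th percentile no microglia or endothelial marker was above. The neural stem cell, neuroblast and oligodendrocyte precursor counts were unchanged at either percentile. In RNA from whole cultures, fewer cells with a transcript and less of it per cell cannot be told apart.

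Nearly all initiation factor genes were detected. Of the 48 genes, 46 were above the reference level, while 59.1% of all genes tested were called. All genes tested include 1394 receptor genes, which set the level and of which 54 were called. Among the other 20786 genes the share called was 62.8%. The median margin was 3.84 log2 units for the initiation factor genes and 0.76 for all genes tested. A margin over 4 was reached by 22 of the 48 genes (45.8%), and by 12.7% of all genes. The genes not above were Eif4e1b and Eif2c5, and Eif4e3 and Eif3j1 lay within 0.5 log2 units of the level. The count moved little with the way the level was set. It was 46 with the 90th percentile of the receptors, while 66.7% of all genes were called, and 44 with the 99th (44.9%). It was 44 against other silent gene families (43.5%), 44 with the lowest probe set of each gene (57%) and 46 with the median of its sets (58.5%). Quantile normalisation gave 46 (59.4%) and a fit without intensity trend 46 (58.8%). Among genes above the median signal 44 of 44 were called, as were 100% of such genes, so that count carries no information. A margin of at least 1 log2 unit was called for 44 genes (45.5%). Without array 1, 2 or 3 the count was 45 (56.4%), 45 (58.4%) and 46 (58.7%), and 45 genes exceeded the level on every array (59.6%).

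For the 45 called genes other than Eif4e3, the adjusted p of limma's test was at most 3.56e-09. That fit used 1 spread for genes of like signal, and the spread of the single gene did not enter its p.

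**Figure D1:**
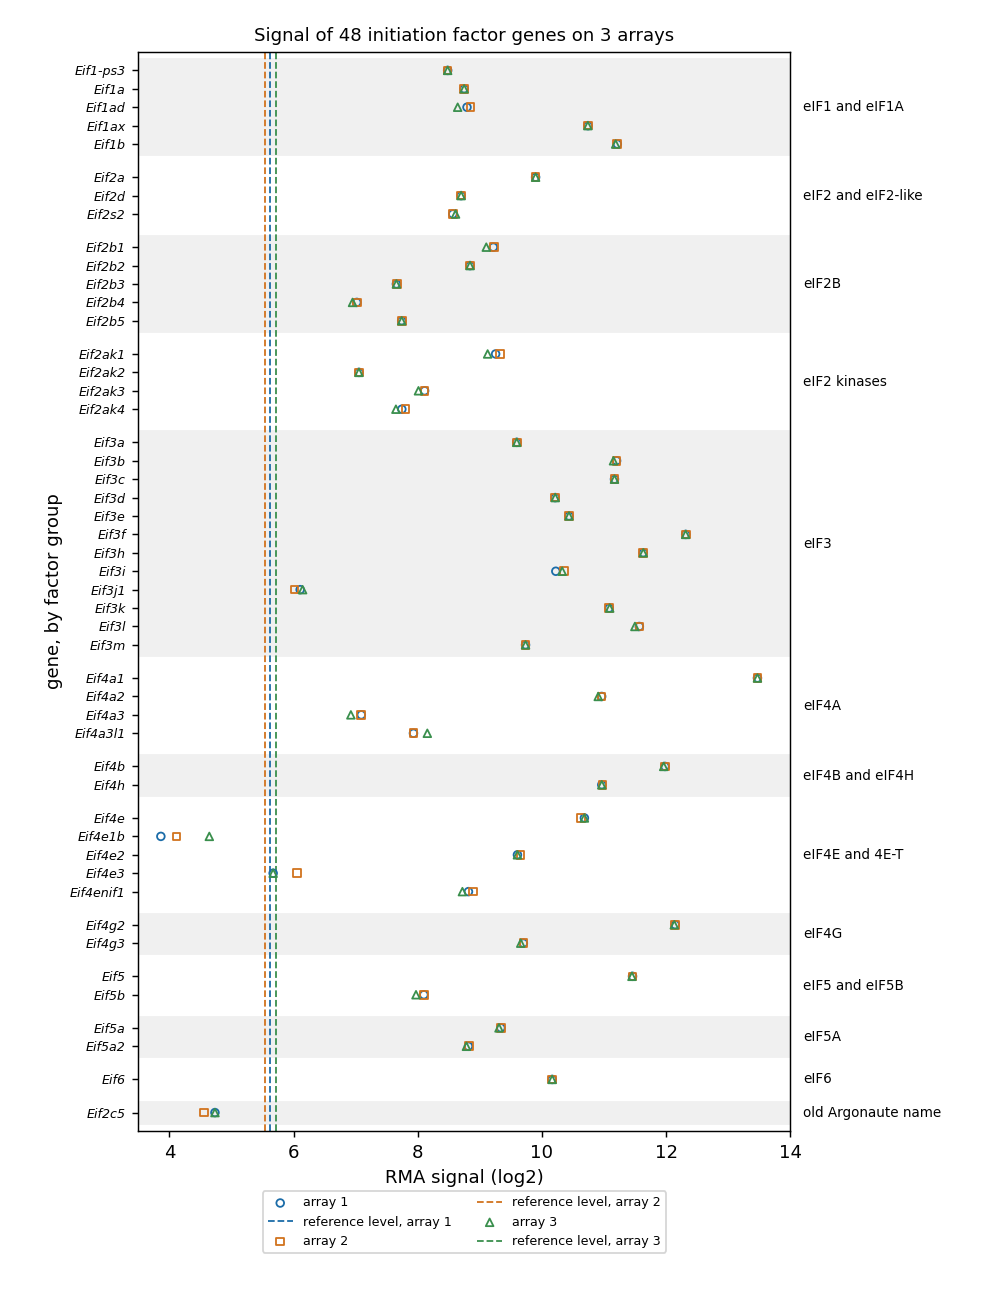
RMA signal (log2, horizontal axis) of the 48 initiation factor genes, by factor group, with 1 symbol for each of the 3 arrays and dashed lines at each array's reference level. Of the genes, 46 were called above the level, and Eif4e1b and Eif2c5 lie left of the lines on every array.

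**Figure D2:**
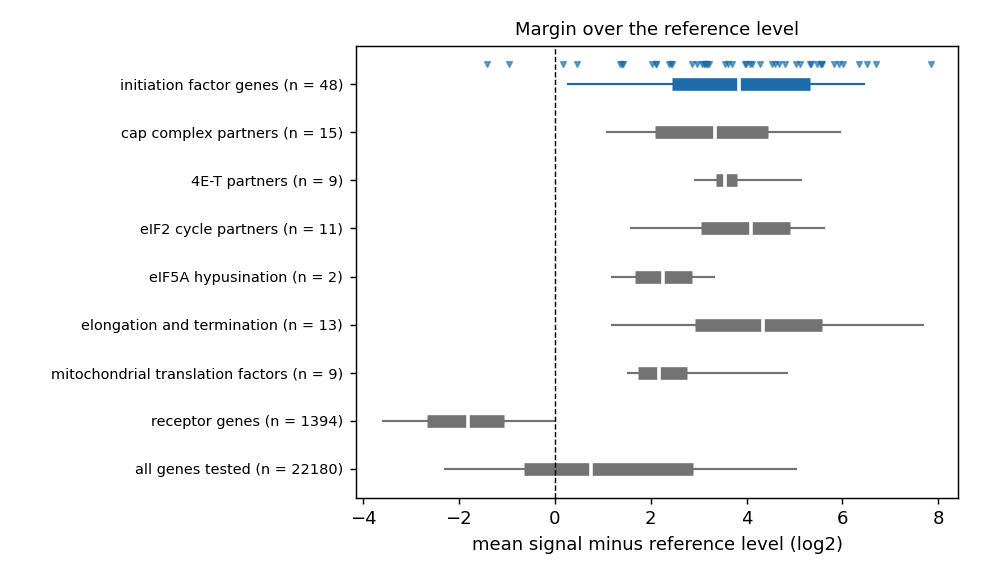
Mean signal minus reference level (log2) for the initiation factor genes, for lists of genes that work with them or follow them in translation, for the receptor genes that set the level, and for all genes tested. Thick bars span the 25th to the 75th percentile, thin lines the 5th to the 95th, white marks are medians (3.84 for the initiation factor genes, 0.76 for all genes), and small triangles are the 48 single genes.

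Of the cap-binding genes and 4E-T, 4 of 5 were above the reference level (59.1% of all genes tested were called). Eif4enif1 had 8.82, 8.89 and 8.72 on arrays 1, 2 and 3, a margin of 3.18 ± 0.17 over the reference level (SD, n = 3). Its signal had an SD of 0.085 and spanned 0.17 log2 units over the 3 arrays, with array 2 highest and array 3 lowest. Eif4e, the general cap-binding factor, had 10.68, 10.63 and 10.68 and a margin of 5.04 ± 0.063. Eif4e2, also called 4EHP, binds the cap without joining eIF4G and takes part in repression. It had 9.60, 9.66 and 9.60 and a margin of 4.00 ± 0.12. Both genes stayed far above the level on every array.

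The remaining cap-binding genes gave little or no signal over the unspecific level. Eif4e3, a cap-binding gene of a separate class, had 5.67, 6.05 and 5.67 on arrays 1, 2 and 3. It exceeded the level of arrays 1 and 2 by 0.043 and 0.52 and lay 0.042 under that of array 3. Its mean margin was 0.17 ± 0.30 (limma adjusted p = 0.0201), and the call did not hold when an array was left out in 2 of 3 cases. The margin was 0.24 without array 1 (limma adjusted p = 0.106), 0.000687 without array 2 (limma adjusted p = 0.806) and 0.28 without array 3 (limma adjusted p = 0.00321). Eif4e1b, the form known from oocytes, had 3.86, 4.11 and 4.64, and its margin was -1.42 ± 0.35. It lay under the level on every array and had the widest range of the 48 genes, 0.78 log2 units.

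Sequence around the gene starts of these factors was examined for what the genes share beyond their names. Start windows of 300 bases (250 before and 50 after the start) came from RefSeq on GRCm38.p6, while the arrays' own build is not given, and 38 of the 48 genes matched by symbol. The motif CACGTG, the E-box known to bind Myc, reads the same on both strands. It was found in 9 of the 38 genes (23.7%), against 8.09% of all genes in the table and 8.91% of its protein-coding genes. The motif CCGGAAG, searched on both strands and known as a core of ETS factor sites, was found in 14 of 38 (36.8%), against 9.93% of all genes and 12.9% of protein-coding genes. The motifs were chosen after the sequences had been seen. A match is a description of the letters and shows no binding. More than 1 start was listed for 15.8% of the 38 genes and 15.4% of all genes, and a gene counted if any of its starts held the motif. The first 5 windows show CACGTG in capitals, for the cap-binding gene, the helicase, its cofactor and an eIF3 subunit, and the last 4 show CCGGAAG or its reverse complement, for 4E-T, 4EHP, an eIF2B subunit and an eIF3 subunit.
Eif4e, 64 bases before a start (chr3:138527192-138527221, + strand): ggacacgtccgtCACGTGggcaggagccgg
Eif4e, 228 bases before the same start (chr3:138527028-138527057, + strand): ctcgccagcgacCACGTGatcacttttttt
Eif4a1, 189 bases before the start (chr11:69672595-69672624, - strand): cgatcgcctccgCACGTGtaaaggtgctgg
Eif4h, 96 bases before the start (chr5:134639488-134639517, - strand): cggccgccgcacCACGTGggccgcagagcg
Eif3f, 68 bases before the start (chr7:108934335-108934364, + strand): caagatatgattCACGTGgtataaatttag
Eif4enif1, 5 bases before one of its starts (chr11:3203002-3203031, + strand): gtccctgcccttCTTCCGGaggagcctcta
Eif4e2, 23 bases before one of its starts (chr1:87213904-87213933, + strand): ctcgccagccaaCCGGAAGtagccgggccc
Eif2b4, from base 2 of the transcript (chr5:31193121-31193150, - strand): acccagtgcacgCCGGAAGttgtagtccgc
Eif3l, 35 bases before the start (chr15:79075176-79075205, + strand): ggctgggcgggaCTTCCGGtccggccaagc
All 8 genes shown were called above the reference level, as were 46 of the 48 initiation factor genes and 59.1% of all genes tested. A link between motif and signal was not tested.

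A pyrimidine tract at the first base marks the mRNAs called TOP mRNAs, many of which encode ribosomal proteins and whose translation follows mTOR. A C at the first base followed by 4 bases that are each C or T was searched for at every start. It was found for 2 of the 38 genes (5.26%), against 3.01% of all genes and 2.67% of protein-coding genes. The position fixes the strand, so only the sense strand was read. One was Eif3f, an eIF3 subunit gene with 12.31 on every array, whose window from chr7:108934405-108934434 (+ strand) is shown with the tract in capitals.
Eif3f: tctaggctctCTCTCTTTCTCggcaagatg
The other was Eif2c5, which is no initiation factor. The name is an old one of the Argonaute family, RefSeq lists the gene as a long noncoding RNA with the synonym Ago5, and its signals of 4.73, 4.56 and 4.73 were under the reference level on every array.

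The measured genes named for eIF4G, eIF4A, eIF4B and eIF4H were all above the level (59.1% of all genes tested were called). The scaffold gene Eif4g1 was not analysed here. Eif4g2 encodes DAP5, a scaffold that lacks the eIF4E-binding part. It had 12.15, 12.15 and 12.13 on arrays 1, 2 and 3. Eif4g3, a full-length scaffold, had 9.70, 9.70 and 9.66. For both, arrays 1 and 2 held exactly equal values and array 3 was lowest. Eif4b and Eif4h, cofactors that stimulate eIF4A, had means of 11.97 ± 0.012 and 10.97 ± 0.0071.

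Among the eIF4A genes, Eif4a1, the main helicase of initiation, had 13.47 on every array. Eif4a2, its close paralog, had 10.96, 10.96 and 10.91. Eif4a3 works in the exon junction complex, not in initiation, and had 7.09, 7.09 and 6.92. Eif4a3l1, a gene resembling Eif4a3, had 7.93, 7.93 and 8.15 and was the only one of these genes with its highest value on array 3. A further probe set carries the symbols of both genes and was not used, so the signals of Eif4a3 and Eif4a3l1 may be shared and are uncertain.

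The probe sets of a gene did not always give like signals. Of the 48 genes, Eif3d, Eif4a1 and Eif4a2 had several probe sets of their symbol alone. The sets used for Eif3d and Eif4a1 exceeded the gene's other set by 5.18 and 4.89 log2 units. The second set of Eif3d had 5.03 on every array and lay under the reference level. The second set of Eif4a1 had 8.58 and was above it. Eif4a2 had a second set at 7.79, 8.23 and 7.70 and another at 5.69, 5.60 and 5.60. That last set straddled the level, above it on arrays 1 and 2 and under it on array 3. The calls of Eif3d and Eif4a2 therefore depend on which set stands for the gene, while Eif4a1 was above with either.

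**Figure D3:**
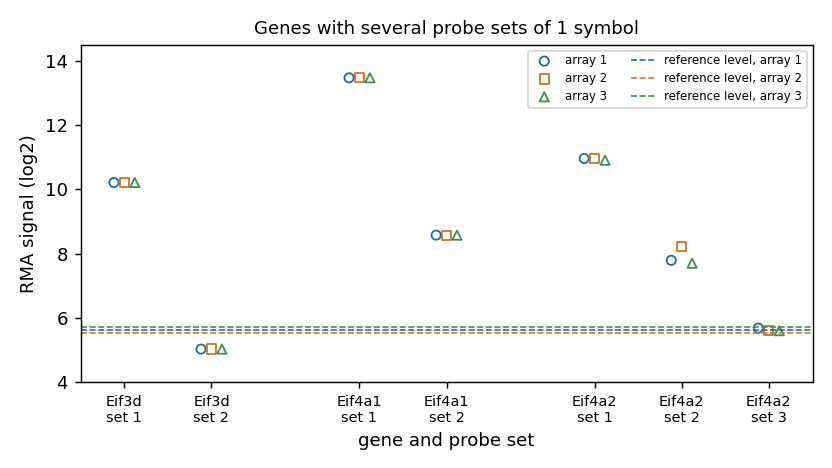
RMA signal (log2) of every probe set of the 3 genes with several sets of 1 symbol, with 1 symbol per array and dashed lines at the reference levels. Set 1 of each gene was the one used, and set 2 of Eif3d, at 5.03, lies under all lines.

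The eIF3 genes form the largest group. The complex binds the small ribosomal subunit and recruits the mRNA. Of its subunit genes 12 were measured, all above the reference level (59.1% of all genes tested were called). Their margins ran between 0.46 for Eif3j1 and 6.69 for Eif3f, with a median of 5.14. Eif3a, the largest scaffold subunit, had 9.59 on every array, Eif3c had 11.17 and Eif3e had 10.43. Likewise Eif3h had 11.63 and Eif3m 9.74 on every array. Exactly equal values on all arrays were found for 7 of the 12 genes, and for 37.2% of genes above the level and 39.4% of all genes.

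The other eIF3 genes varied slightly between arrays. Eif3b, a core scaffold subunit, had 11.20, 11.20 and 11.15, and Eif3l had 11.57, 11.57 and 11.50. Eif3k, the partner of Eif3l, had 11.08, 11.08 and 11.09. In Eif3i array 1 was lowest, with 10.22, 10.35 and 10.33. Of the 12 genes, 10 had a range under 0.1 log2 units, as did 70.4% of genes above the level and 64.8% of all genes.

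Eif3j1 encodes the loosely bound subunit j and had 6.11, 6.01 and 6.15, with a margin of 0.46 ± 0.028. The SD of its signal was 0.067. All 3 arrays were above their level, yet the margin turned to -0.31 against the 99th percentile of the receptors. A further probe set names both Eif3j1 and its copy Eif3j2 and was not used, so the low signal of this set does not give the amount of subunit j transcript.

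The eIF2 genes carry and recycle the initiator tRNA. Eif2s2, the beta subunit, was the single subunit measured, with 8.56, 8.57 and 8.61 on arrays 1, 2 and 3 and a range of 0.044 log2 units. Eif2a, which is not a subunit of eIF2 and can deliver initiator tRNA by another route, had 9.90 on every array. Eif2d, a factor of reinitiation and ribosome recycling, had 8.70 on every array.

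eIF2B is the exchange factor that reloads eIF2 with GTP, and loss of its function in humans causes a leukodystrophy of glial cells. All 5 subunit genes were above the level (59.1% of all genes tested were called), with margins between 1.37 and 3.56. Eif2b1, the alpha subunit, had 9.22, 9.23 and 9.10, the widest range of the 5 at 0.12 log2 units. Eif2b4, the delta subunit, had 7.02, 7.02 and 6.95. Array 3 was lowest in both. Eif2b2 (beta) had 8.84 and Eif2b5 (epsilon, the catalytic subunit) 7.74 on every array, and Eif2b3 (gamma) had 7.66, 7.67 and 7.66.

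Kinases of eIF2 stop that exchange when cells are stressed. The genes of all 4 were above the level (59.1% of all genes tested were called). Eif2ak1 encodes HRI, known for its response to heme shortage and mitochondrial stress. It had 9.25, 9.32 and 9.12. Eif2ak4 encodes GCN2, the sensor of uncharged tRNA, and had 7.74, 7.80 and 7.65. Eif2ak3 encodes PERK of the endoplasmic reticulum and had 8.11, 8.11 and 8.01. In these 3 genes array 3 was lowest, by 0.099 to 0.19 log2 units under the highest array. Eif2ak2, which encodes PKR, the kinase of double-stranded RNA, had 7.05 on every array.

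Genes listed as partners of the eIF2 cycle, under other names, were detected too. Not all of the listed genes act on eIF2 itself. All 11 that were measured exceeded the level (59.1% of all genes tested were called). Their median margin was 4.09, against 0.76 over all genes. They included Ppp1r15a (7.08 on every array) and Ppp1r15b (9.98, 10.09 and 10.02), the subunits that direct phosphatase to eIF2. Nck1, an adaptor that binds eIF2, had a mean of 8.75 ± 0.0093. Impact, an inhibitor of GCN2 known to be abundant in neurons, had a mean of 10.63 ± 0.015.

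The measured genes grouped under scanning and subunit joining were all above the level (59.1% of all genes tested were called). Eif1 itself was not analysed here. Eif1b, a paralog of eIF1, had 11.21, 11.21 and 11.19. Eif1ax encodes eIF1A, which helps to open the ribosome for scanning, and had 10.74 on every array to 2 decimals. Eif1a, a second eIF1A gene, had 8.75 on every array. These sequences are alike, so probes may share signal. Eif1ad, named for its eIF1A domain, had 8.79, 8.85 and 8.64. Eif1-ps3 is listed by RefSeq as a pseudogene and had 8.48 on every array. Whether its probes read transcripts of Eif1 was not tested.

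Eif5, which triggers GTP hydrolysis on eIF2, had 11.46, 11.46 and 11.45. Eif5b, which joins the large ribosomal subunit, had 8.10, 8.10 and 7.97, with array 3 lower by 0.13 log2 units. Eif6, which keeps free large subunits from joining small ones too early, had 10.16 on every array.

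eIF5A carries hypusine, an amino acid made on this protein alone, and acts mainly in elongation and termination. Eif5a had 9.34, 9.34 and 9.31, and Eif5a2, the second form, had 8.82, 8.82 and 8.78. Both genes were above the reference level (59.1% of all genes tested were called), with ranges of 0.030 and 0.039 log2 units. The enzymes that make hypusine, Dhps (9.07 ± 0.030) and Dohh (6.70 ± 0.022), were above as well.

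Partners of the cap complex outside the Eif names were also measured. Of 15 such genes 15 were above the level, while 59.1% of all genes tested were called, and their median margin was 3.34. The count was 14 with the 99th percentile of the receptors, 13 against the other silent families and 14 with a margin of at least 1 log2 unit. Pabpc1, the poly(A)-binding protein that closes the mRNA loop with eIF4G, had 7.80, 7.80 and 7.78, and Pabpc4 had 6.27 on every array. Paip1, which stimulates that contact, had 11.69, 11.65 and 11.67, and its inhibitory relative Paip2 had 10.26, 10.30 and 10.21. Of proteins that bind 4E-T or share P-bodies with it, 9 of 9 measured genes were above (59.1% of all genes), with a median margin of 3.55. These include the helicase Ddx6, at 11.36 on every array, and Lsm14a, at 9.33, 9.33 and 9.23.

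Differences between the arrays were small for the initiation factor genes, as for genes above the reference level in general. Many values were exactly equal between arrays, which lowers these SDs. The median SD over the 3 arrays was 0.016 log2 units for the 48 genes and 0.014 for the 46 above the reference level. It was 0.017 for all genes above the level and 0.020 for all genes tested. A range over 0.25 log2 units was found for Eif4e1b and Eif4e3, that is 2 of 48 genes (4.17%), against 16.9% of all genes and 11.1% of genes above the reference level. A range under 0.1 was found for 35 of 48 genes (72.9%), against 70.4% of genes above the reference level and 64.8% of all genes. limma's residual variance, set over its trended prior variance in an F test, called 0 of the 48 genes and 0% of all genes at an adjusted p under 0.05. At an unadjusted p under 0.05 it also called 0 genes. With 0.2991 prior degrees of freedom the smallest unadjusted p of any gene was 0.0538, so this test could call nothing here and says nothing about stability.

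**Figure D4:**
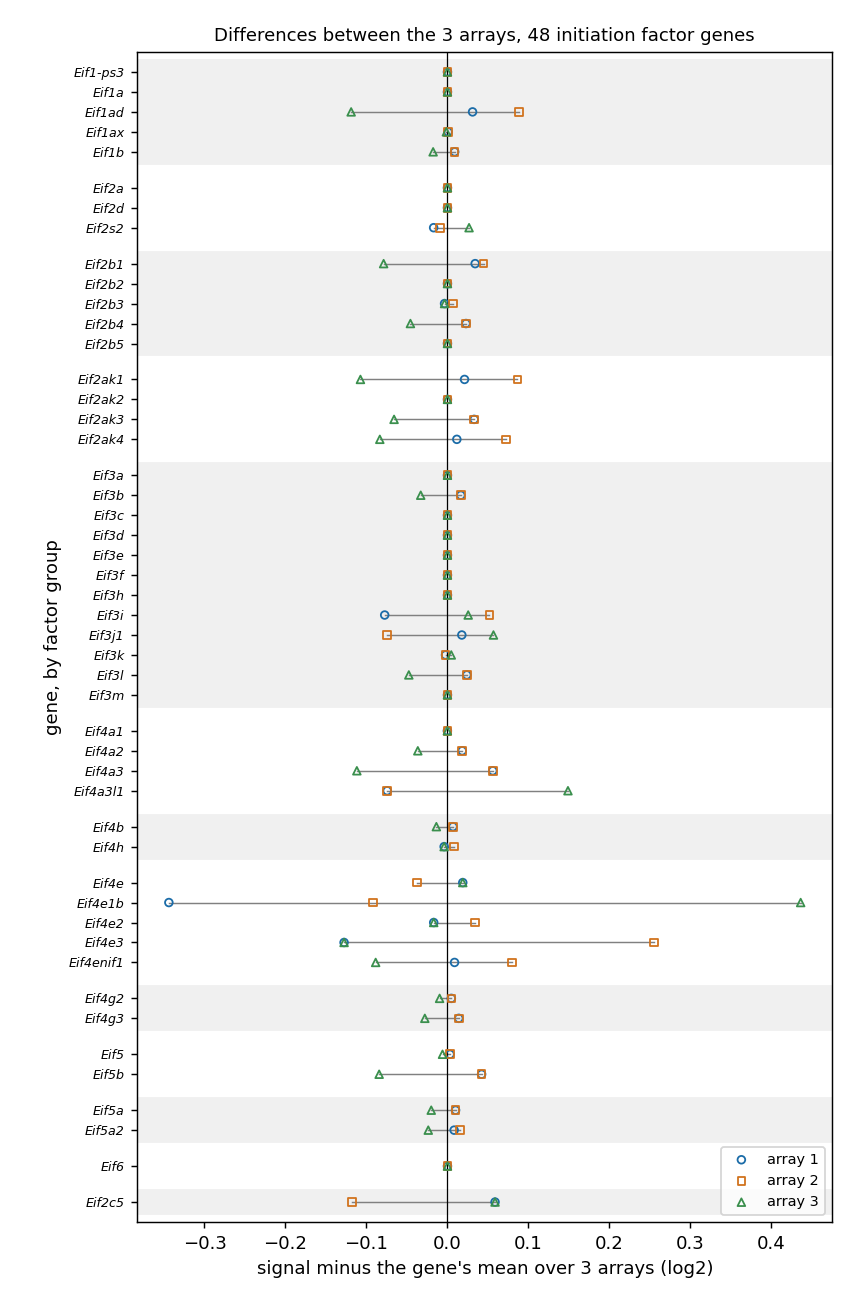
Signal of each initiation factor gene on each array minus the gene's mean over the 3 arrays (log2), by factor group, with a grey line over each gene's range. Most genes lie within 0.1 log2 units, and Eif4e1b and Eif4e3 have the widest ranges. Array 3 is the lowest array for 20 of the 48 genes (41.7%), against 32.9% of genes above the reference level and 21.7% of all genes.

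Array 3 held the single lowest value for 20 of 48 initiation factor genes (41.7%), against 32.9% of genes above the reference level and 21.7% of all genes tested. Array 1 and array 2 were lowest for 3 genes each (6.25%), against 4.46% and 16.4% of all genes. Of the 20 genes, 3 were eIF2 kinase genes, 3 were eIF1 and eIF1A genes, and 2 each were genes of eIF2B, eIF3, eIF4A, eIF4G, eIF5A and the group of eIF5 and eIF5B. The remaining 2 were Eif4b and Eif4enif1. The mean difference of array 3 minus array 2 was -0.021 log2 units over the 48 genes and 0.014 over all genes tested. Among genes above the reference level it was -0.037 for the 46 initiation factor genes and -0.030 for all 13104. Whether these differences come from the cultures or from array processing was not tested.

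Many deposited values were exactly equal between arrays, so an SD of 0 understates the true spread. All 3 values were equal for 16 of the 48 genes (33.3%), against 39.4% of all genes. Arrays 1 and 2 alone were equal for another 16 (33.3%), against 15.2% of all genes. Arrays 1 and 3 alone were equal for 6 genes (12.5%), against 17.7% of all genes. Arrays 2 and 3 alone were equal for 0 genes, against 2.79% of all genes. The 3 values differed for 10 genes (20.8%), among them Eif4enif1, against 25% of all genes. For these 10 initiation factor genes the median SD was 0.073 log2 units.

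**Figure D5:**
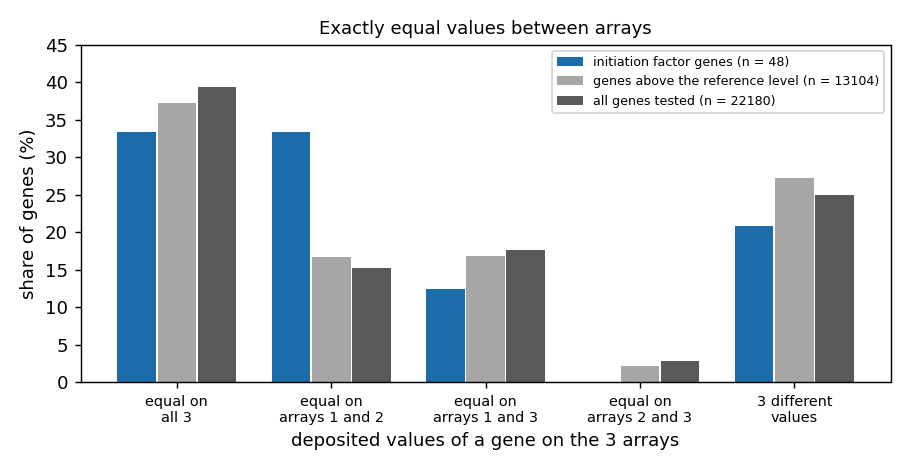
Share of genes (%) by which of the 3 deposited values are exactly equal, for the initiation factor genes (n = 48), genes above the reference level (n = 13104) and all genes tested (n = 22180). Arrays 1 and 2 alone are equal for 33.3% of initiation factor genes, against 15.2% of all genes.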

How the data were processed

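RNA of 3 neurosphere samples of 1 group was hybridised to 1 array each. The deposited values are log2 signals of 41345 probe sets, made by the authors with RMA per the submitters' processing notes. Its version, its options and the genome build are not given in the sources used here, and work began from these signals. The platform's annotation gave the names: 23521 probe sets carried 1 symbol, 1814 several and 16010 none, and 8 of those with several held a symbol of these factors and were not used. limma 3.58.1 in R 4.3.3 fitted an intercept with eBayes and an intensity trend to signal minus reference level, with Benjamini-Hochberg adjustment over all 22180 genes. The steps were tested on simulated data, whose noise was independent between arrays and lacked the exactly equal values of the deposited data. The test of differences between arrays was also run on the deposited values with changes added. Figures were drawn with matplotlib 3.10.9. The genes, lists and tests were chosen with earlier results of these data known. Every initiation factor gene could be named, and of the other lists up to 4 genes above the level in the order written and every gene not above. Cell type markers were reported as counts. Alternatives changed the percentile, the receptor set, the probe set, the scaling, the model, the filter and the margin, and left out each array in turn. Start windows came from RefSeq (GRCm38.p6), and no protein sequences were used here.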

Additional observations from a re-analysis of the deposited data

How the results depend on the processing

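Under every alternative in which they were tested, 44 of the 48 genes kept the direction of their margin and their side of the threshold, the exceptions being Eif3d, Eif3j1, Eif4a2 and Eif4e3. Eif4e1b, Eif2c5, Eif3j1 and Eif4e3 were not tested among genes above the median signal, where the filter removed them. The margin of Eif3j1 was -0.31 and that of Eif4e3 -0.60 against the 99th percentile of the receptors. Against defensins, bitter taste receptors and keratin-associated proteins these margins were -0.35 and -0.64. With the lowest probe set Eif3d had -0.59 and Eif4a2 0.0079. Eif4e3 lost its call without array 1 (limma adjusted p = 0.106), without array 2 (0.806) and under a rule added after seeing the data, a signal over the level on every array with no model, which 59.6% of all genes passed. The hypusine list had 1 gene above, not 2, with the 99th percentile, with the other silent families and with a margin of at least 1 log2 unit. The median SD of the 48 genes was 0.073 over genes with 3 different values, and between 0 and 0.019 when each array was left out in turn. The value of 0 follows from the equal values of arrays 1 and 2. No paired analysis was possible because the series has 1 group.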

Other observations

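Factors of the later steps of translation were detected in the same cultures. Of 13 measured elongation and release factor genes, 13 were above the reference level, against 59.1% of all genes tested. The count was 12 with the 99th percentile of the receptors, against the other silent families and with a margin of at least 1 log2 unit. The median margin was 4.35 log2 units, against 0.76 over all genes. Eef1a1, which delivers aminoacyl-tRNA, had 13.49, 13.48 and 13.48 on arrays 1, 2 and 3, and Eef1b2, part of its exchange factor, had 11.16, 11.23 and 11.16. Eef1a2, the form known from mature neurons and muscle, had 6.47, 5.95 and 6.74, a range of 0.78 log2 units with array 2 lowest. Of 9 mitochondrial translation factor genes 9 were above (59.1% of all genes), with a median margin of 2.18, among them the initiation factor genes Mtif2 (7.36, 7.51 and 7.24) and Mtif3 (7.85, 7.85 and 7.72). In both array 3 was lowest.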
